A study of Mus musculus with 3 samples.

Results

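The aquaporins are a family of membrane channels, and 5 of them, Aqp1, Aqp4, Aqp5, Aqp9 and Aqp11, were followed in mouse retina. The array carries 8 probes for these 5 genes, among 21364 genes that could be named in all, and each probe was read on all 3 arrays. The 5 genes were chosen from a family already known to hold a large difference in these arrays (that of Aqp1), so their signals and differences are given as a description. The labels give 3 groups, all of retina dissected at postnatal day 12: a wild-type, one called Otx2 KI and one called Crx KO, where KO and KI usually stand for knockout and knock-in. They do not give the strain, the number of mice, the locus of the knock-in or the altered part of Crx. There is 1 array per genotype, so no test between genotypes was possible and a difference has no replicate check. The threshold for a called difference was 2-fold, a log2 value of 1.

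An aquaporin is built of membrane-spanning helices around a narrow pore that lets water through, and some members, the aquaglyceroporins, also pass glycerol. In the eye, Aqp1 has been described in photoreceptors, in some amacrine cells, in epithelia that secrete fluid and in red blood cells. Aqp4 sits in the end-feet of Muller glia, next to the potassium channel Kcnj10, where it helps to balance water as neurons release potassium. Aqp5 belongs to cornea, lens and gland epithelia, Aqp9 to liver and white blood cells, and Aqp11 to the endoplasmic reticulum.

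All 3 arrays shared 1 slide and 1 scan, so position on the slide and genotype cannot be told apart. Of 59305 non-control spots per array, 63.5% to 67.1% exceeded background clearly (the scanner's well-above-background mark), with 0 saturated. Scaled signal below is the scanner's Cy3 intensity with each array brought to the wild-type array's 75th percentile, and it can be compared between arrays but not between probes. The value after ± is the error given by the scanner software for that array, which does not cover the spread between mice. Markers of retina were present: 15 of 15 Muller glia genes were well above background on every array and 18, 17 and 17 of 18 photoreceptor genes had such signal in wild-type, then Otx2 KI, then Crx KO. The Crx probe read 9790, 1062 and 7177 in that order, and the Otx2 probe read 40886, 63860 and 62981. Whether the Crx probe lies in the altered part is not in the labels, so it does not check them, and the arrays are named by their labels.

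Of the 5 aquaporins, 4 were well above background on every array and 1, Aqp9, on none. Aqp1 was far lower in both mutant arrays and was the only one of the 4 past 2-fold, while Aqp4, Aqp5 and Aqp11 stayed within 2-fold. In Otx2 KI 1 of the 4 was lower and 0 were higher, against 2.53% lower and 1.35% higher among the 15805 genes measured in that pair. In Crx KO it was again 1 lower and 0 higher, where 3.43% of 16044 measured genes were lower and 1.95% higher. Between the mutant arrays 0 of the 4 differed by 2-fold, where 0.677% of 15801 genes were higher in Otx2 KI and 0.646% lower (107 and 102 genes, or 34 and 53 after normexp background correction and quantile normalization). Because these same values led to the choice of the genes, nothing is read from the counts.

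**Figure D1:**
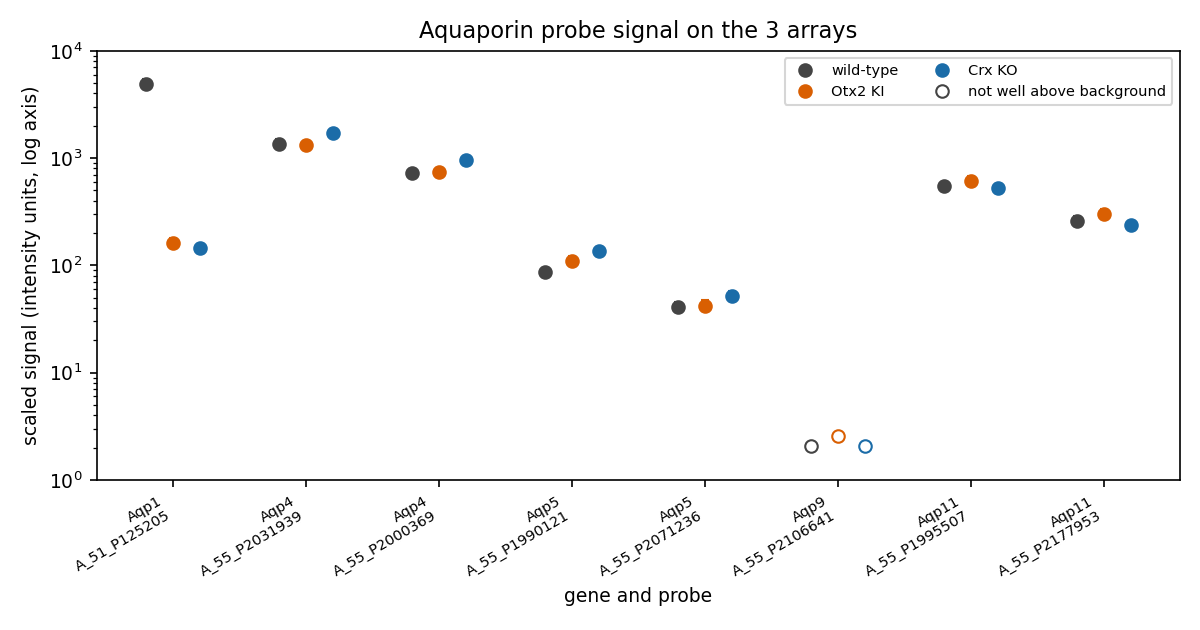
Scaled signal (Cy3 intensity units, log axis) of the 8 probes of Aqp1, Aqp4, Aqp5, Aqp9 and Aqp11 on each of the 3 arrays; error bars are the scanner software's error and are mostly smaller than the points, open circles are not well above background, and heights compare arrays within a probe only. Aqp1 drops from 4908 in wild-type to 163 and 145, and the 3 readings of each other probe lie close together.

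Aqp1, the classic water-selective channel, read 4908 ± 491 on the wild-type array, 163 ± 16.6 on that of Otx2 KI and 145 ± 14.7 on that of Crx KO. The wild-type array was high and both mutant arrays were low, and the error ranges of the mutants overlapped. Aqp1 was thus 30.1-fold lower in Otx2 KI than in wild-type (log2 -4.91, error 0.21) and 33.9-fold lower in Crx KO (log2 -5.08, error 0.21). Otx2 KI against Crx KO gave a log2 difference of 0.17 with an error of 0.21. In both mutants the probe remained well above background, where the dimmest probes so classed read 12.4 in Otx2 KI and 9.94 in Crx KO.

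Few measured genes lay further below wild-type than Aqp1. In Otx2 KI 8 of the 15805 measured genes were lower, and in Crx KO 7 of 16044. Genes that were not well above background in the mutant, such as Mc1r (below), are outside these counts, however far they fell. With normexp background correction, which adds an offset of 50 and so compresses dim signals, the differences were log2 -4.24 in Otx2 KI and -4.51 in Crx KO. Aqp1 has 1 probe on this array, so no second probe checks it. The 1 wild-type array serves in both comparisons.

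**Figure D2:**
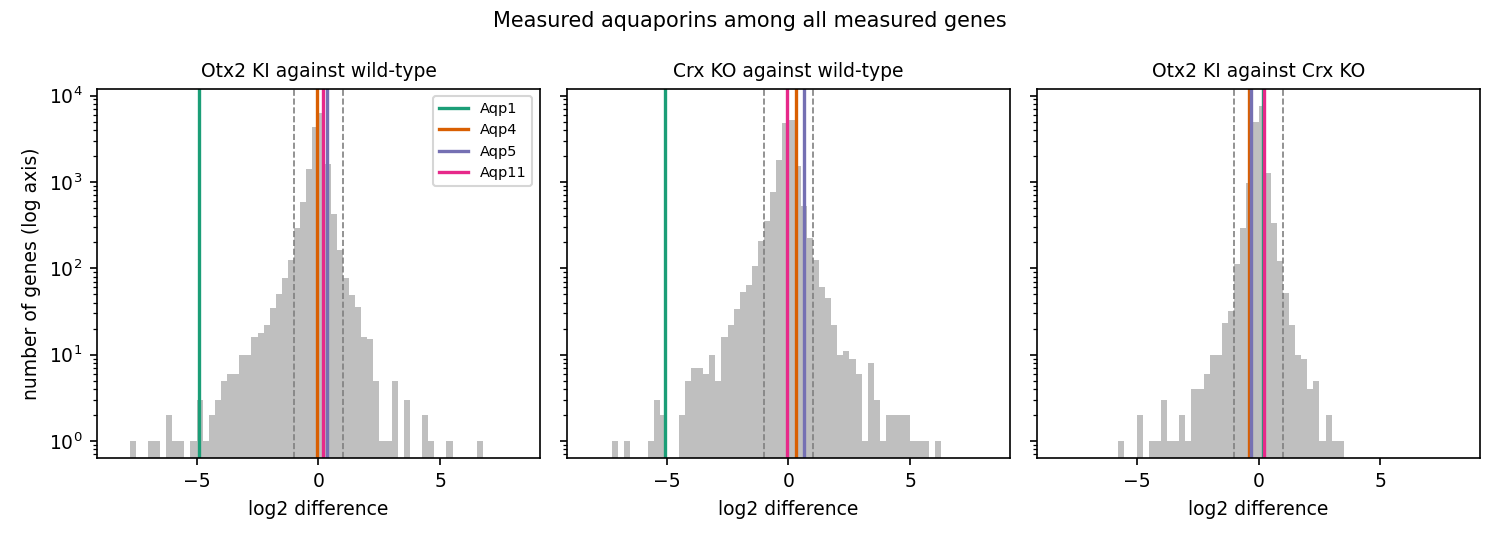
Number of genes (log axis) by log2 difference for all genes measured on both arrays, in Otx2 KI against wild-type, Crx KO against wild-type and Otx2 KI against Crx KO; coloured lines mark Aqp1, Aqp4, Aqp5 and Aqp11, and dashed lines mark 2-fold. Aqp1 stands in the far lower tail of both comparisons with wild-type, at -4.91 and -5.08. All 4 genes stand within 2-fold when the mutants are compared. In that panel 5.27% of genes were lower than Aqp4 and 7.62% lower than Aqp5, and the lines of Aqp1 (0.17) and Aqp11 (0.24) nearly coincide.

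The genes whose differences from wild-type were nearest to those of Aqp1 were sought among 7657 named genes brighter than the median measured gene, over 3 arrays, by Euclidean distance in the pair of log2 differences. The nearest was Guca1b, a guanylate cyclase activator of photoreceptors, at a distance of 0.62. Guca1b read 23222, 783 and 1051 in wild-type, Otx2 KI and Crx KO, and its dimmer probe gave larger differences, log2 -7.14 and -5.69. Vtn, which encodes vitronectin, followed at 1.11, Rcvrn, a calcium sensor of photoreceptors, at 1.15 and Esrrb, a nuclear receptor of rods, at 1.36. All 4 were brighter in Crx KO than in Otx2 KI, from Vtn at 954 against 840 to Esrrb at 1666 against 652. Aqp1 was slightly dimmer in Crx KO, by less than the scanner error. With normexp 2 of these 4 genes, Guca1b and Vtn, were again among the nearest, beside Ankrd33 and Nxnl1.

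The promoter of Aqp1 is shown because Crx and Otx2 recognise the same core, TAATCC, which reads GGATTA on the other strand. It was searched for on both strands from 250 bases before to 50 bases after the start of each gene in RefSeq's GRCm38.p6 sequences, and 7.06% of 32851 such windows of 300 bases hold it. Of the other genes, windows are listed for Aqp5, Aqp9 and Aqp11, and also for Vtn and Esrrb. Windows on the chromosome of Aqp4 were left out of the listing, so Aqp4 is not in it. The table used here had none for Guca1b or Rcvrn. The core was in 1 window, 1 of the 2 for Aqp9, and in none of the other windows listed. That of Aqp1 is chr6:55336049-55336298 on the plus strand, the 250 bases before the start. That of Aqp9 is chr9:71163284-71163539 on the minus strand, in which the core, in capitals, begins at the start itself. A match is a description of letters, and none in a window says only that these letters are not in it.
Aqp1: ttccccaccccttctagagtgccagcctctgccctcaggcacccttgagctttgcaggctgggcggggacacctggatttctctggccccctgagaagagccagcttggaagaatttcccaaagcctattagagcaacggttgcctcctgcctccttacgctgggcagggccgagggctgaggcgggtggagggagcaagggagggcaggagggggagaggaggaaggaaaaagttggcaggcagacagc
Aqp9: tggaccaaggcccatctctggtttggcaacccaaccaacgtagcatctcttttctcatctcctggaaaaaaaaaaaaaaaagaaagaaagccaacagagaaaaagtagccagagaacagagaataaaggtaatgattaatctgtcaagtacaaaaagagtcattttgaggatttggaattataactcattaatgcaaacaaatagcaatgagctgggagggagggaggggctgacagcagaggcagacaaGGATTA

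Markers of the cell types known for Aqp1 were read beside it, as the samples are whole tissue, in which fewer cells of a type and less RNA per cell cannot be told apart. Photoreceptor genes were lower too. Of 17 measured, 13 passed 2-fold downward in Otx2 KI and 14 did in Crx KO, with median log2 differences of -1.55 and -1.75, against 0.030 and -0.0075 over all measured genes. Their summed scaled signal was 1133600 on the wild-type array, 403650 on that of Otx2 KI and 425180 on that of Crx KO. Lower still than Aqp1 were 5 of the 17 in Otx2 KI, among them Gnat1, the alpha subunit of rod transducin (log2 -6.95), and 4 in Crx KO (Gnat1 at -5.68). Opn1sw, the remaining gene of that list, read 207 in wild-type and was not well above background in either mutant. Against the dimmest signal well above background, it was at least 16.7-fold lower in Otx2 KI and at least 20.9-fold lower in Crx KO.

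No gene of the other lists that was measured in both arrays of a pair was as low as Aqp1. Mc1r, the melanocyte receptor for melanocortin, read 973 in wild-type and was not well above background in either mutant, so it was at least 78.4-fold lower in Otx2 KI and at least 97.9-fold lower in Crx KO, taken against the dimmest signal well above background on each array. Ciliary body and choroid plexus epithelium genes, the fluid-secreting type, had 3 of 9 measured genes lower by 2-fold in Otx2 KI and 4 of 9 in Crx KO, with medians of -0.46 and -0.86. The lowest were Calml4, a calmodulin-like protein, at log2 -1.93 in Otx2 KI, and Ttr, the thyroxine carrier transthyretin, at -1.61 in Crx KO. The summed signal of that list was 10947, 6290 and 5338 in wild-type, Otx2 KI and Crx KO, of which Ttr made up 7486, 3269 and 2451. Its marker Cldn2 was not well above background on any array. Pigment epithelium and melanocyte genes had 1 of 12 lower by 2-fold in Otx2 KI and 7 of 11 in Crx KO, with medians of -0.77 and -1.12 and sums of 21408, 12533 and 9562. Best1, a pigment epithelium channel, was not well above background on any array. The part of these tissues in the difference of Aqp1 was not tested.

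Blood and vessel genes did not pass 2-fold against wild-type. All 7 measured erythrocyte genes were within 2-fold in both comparisons, with medians of -0.66 and -0.56 and sums of 55249, 34840 and 38689. The haemoglobin genes among them are close paralogs within the alpha and within the beta kind, and whether their probes tell them apart was not tested. Hbb-b2, a beta chain, was the 1 gene of the 7 above wild-type in Crx KO (log2 0.30). All 12 endothelium genes were within 2-fold, with medians of -0.22 and -0.30 and sums of 33139, 28392 and 27145. Amacrine genes had 13 of 13 measured within 2-fold and medians of 0.058 and 0.11, with sums of 103210, 112720 and 109550. The remaining amacrine gene, Ptf1a, read 4.56 in wild-type, not well above background. It read 25.3 in Otx2 KI and 34.2 in Crx KO, well above background on both. The ganglion cell medians were 0.069 and 0.17 and the microglia medians 0.14 and -0.31, with 0 of 10 past 2-fold in each list. The part of these cells in the difference of Aqp1 was not tested.

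**Figure D3:**
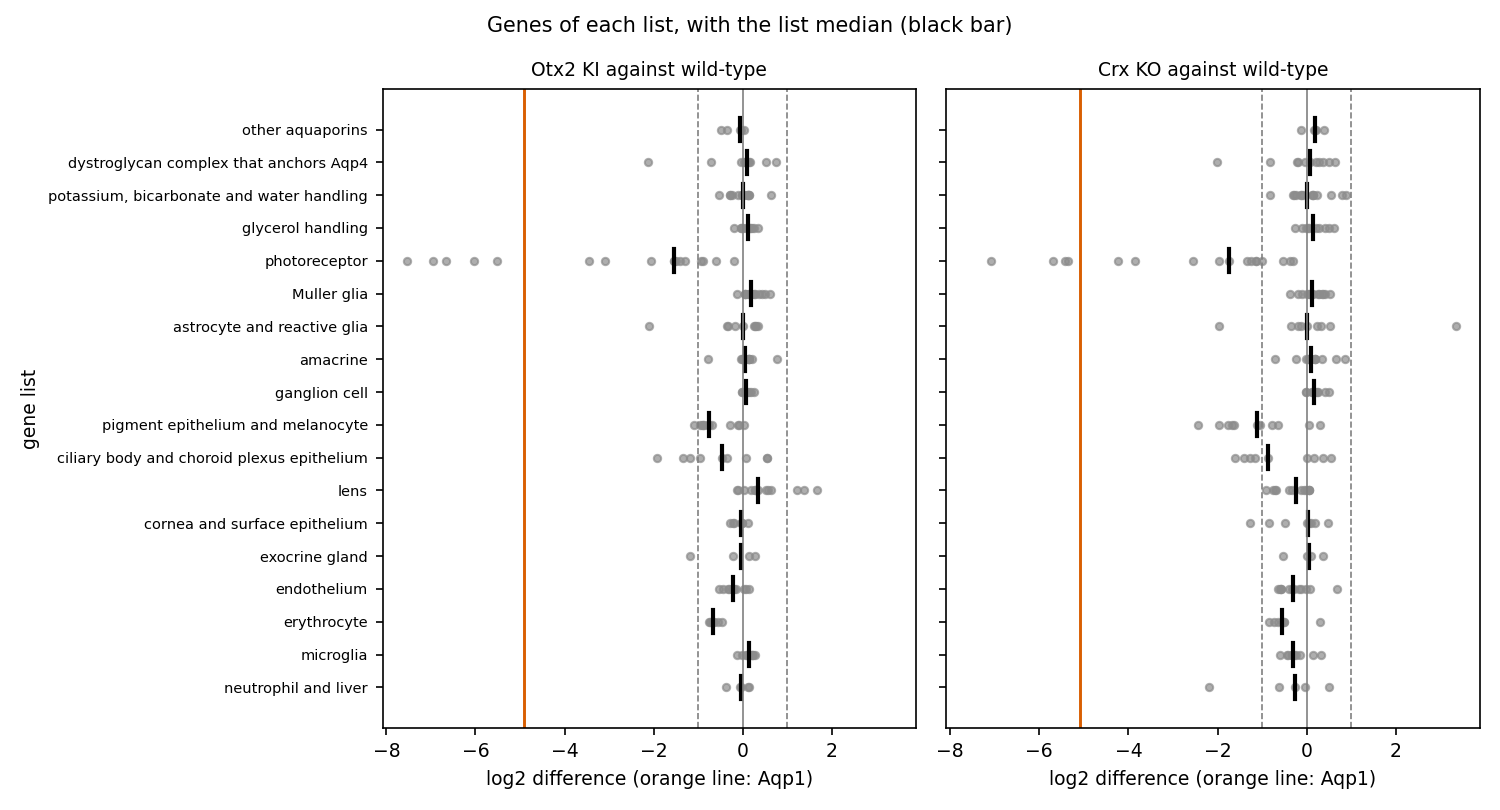
Log2 difference of each measured gene (grey points) and the list median (black bar) for 18 gene lists, in Otx2 KI against wild-type and Crx KO against wild-type; the orange line is Aqp1 and dashed lines mark 2-fold. Among genes measured on both arrays, only photoreceptor genes lie below the Aqp1 line, at -4.91 and -5.08. Mc1r and Opn1sw, not measured in the mutants, are not drawn.

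Aqp4, the glial water channel, was within 2-fold throughout and somewhat brighter in Crx KO. Its brighter probe gave 1365 ± 137 on the wild-type array, 1316 ± 132 on that of Otx2 KI and 1706 ± 171 on that of Crx KO, and the other probe 726, 737 and 958. On both probes Crx KO was the highest array, and wild-type and Otx2 KI lay within the scanner error of each other. The log2 differences from wild-type were -0.053 and 0.020 on the 2 probes in Otx2 KI, and 0.32 and 0.40 in Crx KO, each with an error of 0.20. Of all measured genes, 29.5% were at least as far from wild-type as Aqp4 in Crx KO. Between the mutants Aqp4 differed by log2 -0.37 on the brighter probe, and 11.4% of measured genes were at least as far apart.

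Partners of Aqp4 went different ways. Kcnj10, the potassium channel that shares the glial end-foot with it, read 3041, 3257 and 5565 in wild-type, Otx2 KI and Crx KO, so that Crx KO was again the highest array (log2 0.87). Sntb2, a syntrophin, read 1131, 258 and 281, which is log2 -2.13 in Otx2 KI and -2.01 in Crx KO on its single probe. Sntb2 was the 1 gene past 2-fold among 11 measured of the dystroglycan complex that anchors Aqp4, and the medians of that list were 0.087 and 0.077.

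Muller glia genes stayed within 2-fold. This held for all 15 in both mutants, with medians of 0.19 and 0.12 and sums of 211300, 242920 and 249160 in wild-type, Otx2 KI and Crx KO. Glul, the glutamine synthetase of Muller glia, read 32325, 33488 and 38458. Of 9 astrocyte and reactive glia genes 1 was lower in both (Lcn2, log2 -2.11 and -1.96). The acute-phase gene Serpina3n was higher in Crx KO at log2 3.34 on its single probe, from 13.9 in wild-type and Otx2 KI to 140.3. Its low readings were close to the dimmest classed as well above background, 10.2 in wild-type and 12.4 in Otx2 KI. That list had medians of 0.0070 and 0.0080. For potassium, bicarbonate and water handling, 14 of 14 measured genes were within 2-fold, with medians of 0.0088 and 0.017.

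Aqp5, a channel of secretory and surface epithelia, was dim but well above background on both of its probes. The brighter probe gave 86.0 ± 8.92 on the wild-type array, 110.5 ± 11.4 on that of Otx2 KI and 135 ± 13.7 on that of Crx KO, and the other 41.0, 42.2 and 51.7. Crx KO was the highest array on both probes. The difference from wild-type was log2 0.65 on the first and 0.33 on the second in Crx KO, and 0.36 and 0.040 in Otx2 KI, with errors of 0.21 to 0.23, so the probes gave the same order with unequal sizes. Under normexp the brighter probe stood at 0.43 in Crx KO.

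Genes of tissues outside the retina that make Aqp5 were read beside it. Lens genes were highest in Otx2 KI, with 3 of 13 measured genes higher by 2-fold, a median of 0.35 and sums of 1254, 1922 and 964 in wild-type, Otx2 KI and Crx KO. In Crx KO their median was -0.23, with 0 of 12 past 2-fold. Cornea and surface epithelium genes had medians of -0.037 and 0.024, with 0 of 7 and 1 of 8 past 2-fold and sums of 7137, 6789 and 6866, and their marker Kera, the keratocan of the cornea, was not well above background. Exocrine gland genes had 4 measured genes, with medians of -0.036 and 0.051, 1 lower in Otx2 KI and sums of 4718, 4099 and 5001, of which the amylase gene Amy1 made up 4437, 3813 and 4734. The part of these tissues in the signal of Aqp5 was not tested.

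Aqp9, an aquaglyceroporin, had no signal well above background. Its probe read 2.08, 2.57 and 2.09 in wild-type, Otx2 KI and Crx KO, where the lowest readings classed as well above background were 10.2, 12.4 and 9.94. No fold is given for it, and these arrays set only an upper bound on its level. Of 10 neutrophil and liver genes, 5, 5 and 6 were well above background on the 3 arrays, and Alb, the liver's albumin, was not. Of the 5 measured against wild-type, 0 passed 2-fold in Otx2 KI and 1 was lower in Crx KO, with medians of -0.047 and -0.25. That 1 was S100a9, a calcium-binding protein of neutrophils, which read 50.2, 55.7 and 11.0 (log2 -2.19 in Crx KO). Genes for glycerol handling were all within 2-fold, 10 of 10 in each comparison, with medians of 0.12 and 0.13.

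Aqp11, an intracellular member with an atypical pore motif, was near wild-type on both of its probes. The brighter probe gave 548 ± 54.8 on the wild-type array, 617 ± 61.8 on that of Otx2 KI and 523 ± 52.4 on that of Crx KO, and the other 260, 301 and 235. Otx2 KI was the highest and Crx KO the lowest array on both probes, by small margins. The differences were log2 0.17 and 0.21 in Otx2 KI and -0.066 and -0.14 in Crx KO, with errors of 0.20. With normexp the brighter probe was on the other side of 0 in Crx KO, at 0.019, and with normexp and quantile normalization at 0.016. Otx2 KI against Crx KO gave 0.24 and 0.36, and 22.5% of all measured genes were at least as far apart as the former.

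The other 7 aquaporin genes, with 9 probes, showed no difference of 2-fold. On all 3 arrays 5 of them were measured, Aqp2, Aqp3, Aqp6, Aqp7 and Aqp8, with medians of -0.065 in Otx2 KI and 0.19 in Crx KO, and some signs were not stable: Aqp2, Aqp6 and Aqp8 changed side in Otx2 KI, and Aqp3 in Crx KO, under 1 or more alternatives. Mip, the lens fibre aquaporin, and Aqp12 were not well above background on any array. Aqp6, a channel of intracellular vesicles that also passes anions, read 473, 479 and 538 on its brighter probe, and its second probe was not well above background. Aqp3, a glycerol channel of epithelia, read 23.8, 16.8 and 21.8, with a log2 difference of -0.50 and an error of 0.33 in Otx2 KI. Over the alternatives that difference ranged from -0.50 to -0.033.

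**Figure D4:**
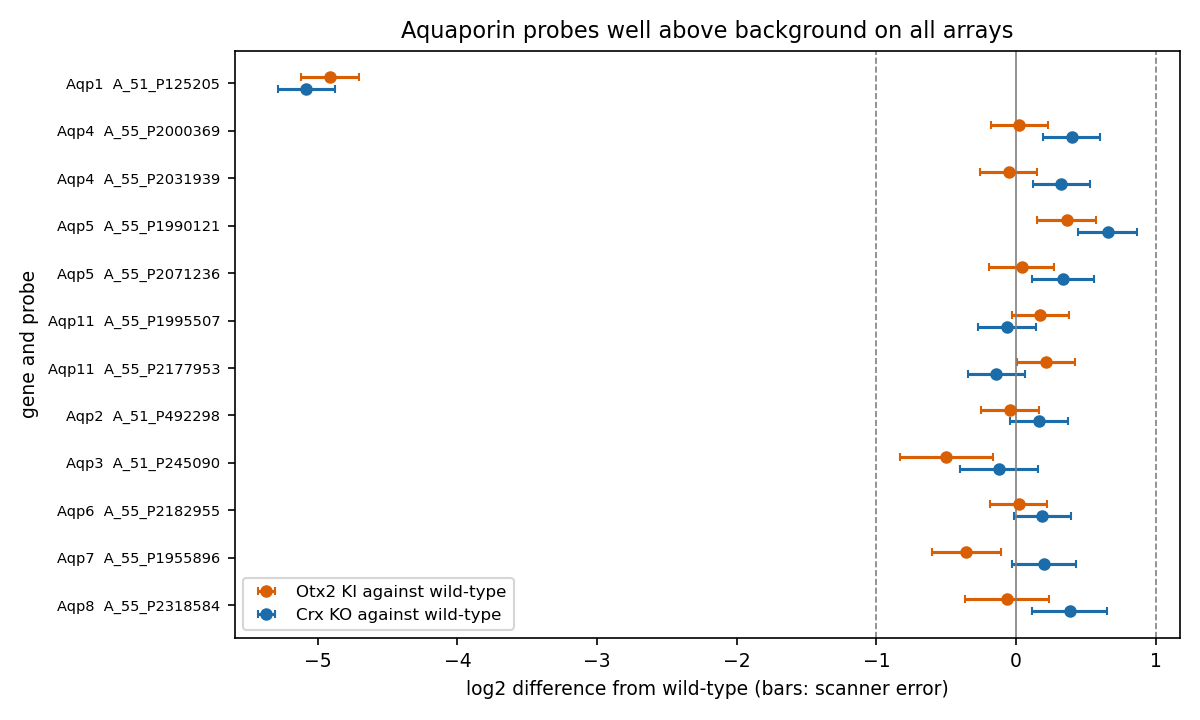
Log2 difference from wild-type of the 12 aquaporin probes well above background on all 3 arrays, for Otx2 KI (orange) and Crx KO (blue); bars are the scanner software's error of the difference and dashed lines mark 2-fold. The Aqp1 probe lies at -4.91 and -5.08, and the other 11 probes lie between -0.50 and 0.65.

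Aqp5 lies between Aqp2 and Aqp6 in the RefSeq gene order, with 0 other protein-coding genes between neighbours. Aqp2, the vasopressin-regulated channel of the kidney, read 112, 108 and 125. Crx KO was the highest array for all 3 neighbours, with log2 differences from wild-type of 0.16 for Aqp2, 0.65 for Aqp5 and 0.19 for Aqp6, the outer 2 being smaller than the scanner error. Set between the mutants, all 5 of the other measured aquaporins had less signal in Otx2 KI, with log2 differences from Crx KO of -0.17 to -0.56, as were Aqp4 (-0.37) and Aqp5 (-0.29), while Aqp1 and Aqp11 had more (0.17 and 0.24). Each of these 9 signs was the same under the alternatives of background correction, normalization, centring, probe choice and source of values. The sizes were less stable, as Aqp3 ranged from -0.43 to -0.046 and Aqp8 from -0.50 to -0.071. Probe choice could not alter Aqp1, Aqp2, Aqp3 or Aqp7, each with 1 probe. The scanner errors of the differences were 0.20 to 0.34, and the differences of Aqp1, Aqp2 and Aqp6 were smaller than their errors. The median over all measured genes was 0.038 in that comparison.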

How the data were processed

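Total RNA from retina of each genotype was amplified and labelled with Cy3, per the labels' protocols. The deposited scanner files hold spot intensity from Agilent Feature Extraction 12.0.3.1, per the file headers, on an array design annotated to mm9. The authors' deposited value table holds intensity too, equal within 1% to the processed signal times 1 constant per array (2.49, 2.54 and 2.61 for the wild-type array, then Otx2 KI, then Crx KO; column medians 129.8, 125.7 and 135.8), which makes its scale linear with no centring; the origin of those constants was not stated in the labels or headers.

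Spots marked as controls or outliers (136, 132 and 126) were left out and replicate spots averaged. Log2 processed signal was reduced by each array's 75th percentile (574, 564 and 570). Of 55681 probes, 50.9% were named by matching unversioned accessions to RefSeq genes of GRCm38.p6, used for names and gene order. A gene was read on its probe with the highest mean, and was measured when well above background on both arrays. With 1 array per genotype no p-value is given, and the number of arrays limits the precision.

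The members and the 18 gene lists were chosen with earlier results of these data known. Named were all members, Crx and Otx2, the other aquaporins, Kcnj10, up to 4 genes per list past 2-fold (some are not reported here), and the 4 genes nearest to Aqp1; Glul, Cldn2, Best1, Mc1r, Amy1, Kera, Alb, Ankrd33 and Nxnl1 were named outside that rule, after their values were seen. Normexp was run in limma 3.58.1 on the spot median signal, because the files used here carry no mean signal; planned protein comparisons were not run, for want of protein sequences. The other steps used Python 3.11.15, numpy 2.4.6 and pandas 2.3.3. Of these, only the 2-fold call was tested on simulated data, drawn around the wild-type values with the scanner error.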

Additional observations from a re-analysis of the deposited data

How the results depend on the processing

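Aqp1 was the only aquaporin of the 5 past 2-fold in each mutant against wild-type, and 0 were past it between the mutants, under all 8 alternatives of background correction, normalization, centring, probe choice, source of values, outlier spots and dim filter. With 1.5-fold in place of 2-fold, 2 members passed in Crx KO (Aqp5 joined), and with 4-fold 1 did. Aqp1 moved by more than its scanner error under normexp, to log2 -4.24 in Otx2 KI and -4.51 in Crx KO, and under normexp with quantile normalization, to -4.21 and -4.49. Aqp5 in Crx KO did so under the same settings, as the offset of 50 compresses dim signals. Keeping outlier spots or dropping the dim filter could not change the values of the 4 measured members, so these settings say nothing about their stability. Averaging all probes could not change Aqp1 either, as it has 1 probe. Of the 4 genes nearest to Aqp1, 2 remained under normexp.

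Counts over all genes depended more on the setting. Past 2-fold were 613 genes in Otx2 KI, 863 in Crx KO and 209 between the mutants. With normexp these counts were 411, 510 and 85, and with normexp and quantile normalization 400, 504 and 87. Without the filter on dim probes they were 1404, 1864 and 975. The cause was not tested beyond the construction of these settings. No paired analysis was possible because each genotype has 1 array.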
